A study of Homo sapiens with 4 samples.

Results

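The 9 genes described here build the MHC class I pathway of antigen presentation. They are the heavy chains HLA-B, HLA-C, HLA-E and HLA-F, the light chain B2M, the peptide transporter subunits TAP1 and TAP2, the loading factor TAPBP and the transactivator NLRC5. They were picked by gene symbol for their role in the pathway, as 9 of the 16878 genes listed in the tables. RNA-seq was performed on 2 Control and 2 siSIRT1 libraries of PANC-1, a cell line established from a human pancreatic ductal carcinoma, 48 h after transfection. The siSIRT1 cells received small interfering RNA against SIRT1, an NAD-dependent protein deacetylase, and the Control cells received a control that is not described further. Both groups share the same cell line and the same time point, so the comparison asks which transcripts differ when SIRT1 is depleted in these cells. The labels name no separate cultures, and p-values then measure only the spread between these libraries, which may be technical.

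MHC class I molecules show short peptides from inside the cell to CD8+ T cells. The proteasome cuts proteins into peptides, the transporter formed by TAP1 and TAP2 moves these into the endoplasmic reticulum, and tapasin (TAPBP) with calreticulin and ERp57 helps to load them onto a heavy chain paired with B2M. HLA-B and HLA-C are classical heavy chains, whereas HLA-E and HLA-F are less variable and are also seen by receptors of natural killer cells. NLRC5 drives transcription of class I genes together with the RFX, CREB/ATF and NF-Y factors, and interferons raise most of the pathway. Tumor cells often carry less class I at their surface.

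The heavy chain genes are close copies of each other, and this bears on how their reads can be assigned. The first 90 bases of coding exon 4, which encodes the domain next to the membrane, are shown for the 4 heavy chains in the GRCh37 reference, in coding direction. Capitals mark bases that differ from HLA-B. The stretches lie at chr6:31323280-31323369 (minus strand) for HLA-B, chr6:31238173-31238262 (minus) for HLA-C, chr6:30458914-30459003 (plus) for HLA-E and chr6:29692808-29692897 (plus) for HLA-F.
HLA-B: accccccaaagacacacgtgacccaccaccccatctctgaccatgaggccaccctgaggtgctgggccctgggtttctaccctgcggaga
HLA-C: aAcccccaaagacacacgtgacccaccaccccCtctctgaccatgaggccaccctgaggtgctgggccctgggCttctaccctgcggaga
HLA-E: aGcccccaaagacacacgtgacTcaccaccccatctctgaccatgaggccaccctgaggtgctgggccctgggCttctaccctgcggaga
HLA-F: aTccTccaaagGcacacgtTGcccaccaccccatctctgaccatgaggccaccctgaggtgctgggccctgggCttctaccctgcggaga

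In this stretch HLA-C and HLA-E each differed from HLA-B at 3 bases and HLA-F at 6. The start of coding exon 2, which encodes part of the peptide groove, is shown for the 2 heavy chains that differed most and least from HLA-B there, with the same marking. It lies at chr6:31324645-31324734 (minus) for HLA-B, chr6:31239556-31239645 (minus) for HLA-C and chr6:29691435-29691524 (plus) for HLA-F. HLA-C differed from HLA-B at 3 bases and HLA-F at 12.
HLA-B: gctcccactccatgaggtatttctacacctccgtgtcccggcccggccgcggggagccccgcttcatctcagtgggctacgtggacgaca
HLA-C: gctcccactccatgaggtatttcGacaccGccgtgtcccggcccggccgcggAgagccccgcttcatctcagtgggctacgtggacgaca
HLA-F: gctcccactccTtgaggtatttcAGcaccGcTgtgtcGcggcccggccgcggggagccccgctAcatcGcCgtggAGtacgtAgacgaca

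Over whole exons of these 4 genes, pairwise identity was 80.7% to 93.7% in coding exon 2, 76.1% to 93.8% in exon 3 and 90.9% to 93.5% in exon 4. Exact matches long enough to hold a short read were fewer. Of all 50-base windows of the canonical transcript, 2.22% in HLA-B, 3.75% in HLA-C, 4.04% in HLA-E and 1.68% in HLA-F also occurred in another of 5 heavy chain transcripts, with HLA-G counted among the 5. With windows of 100 bases the shares were 0% for HLA-B, HLA-C and HLA-F and 0.613% for HLA-E. HLA-B and HLA-F held the smallest shares of shared 50-base windows of the 4. Only these 5 transcripts were compared, so the shares are lower limits and their order may differ with more transcripts. The reference carries one allele per gene, PANC-1 may carry others, and neither the read length nor the treatment of reads shared by several genes is given in the sources used here. The levels of single heavy chains are uncertain to that extent.

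**Figure D1:**
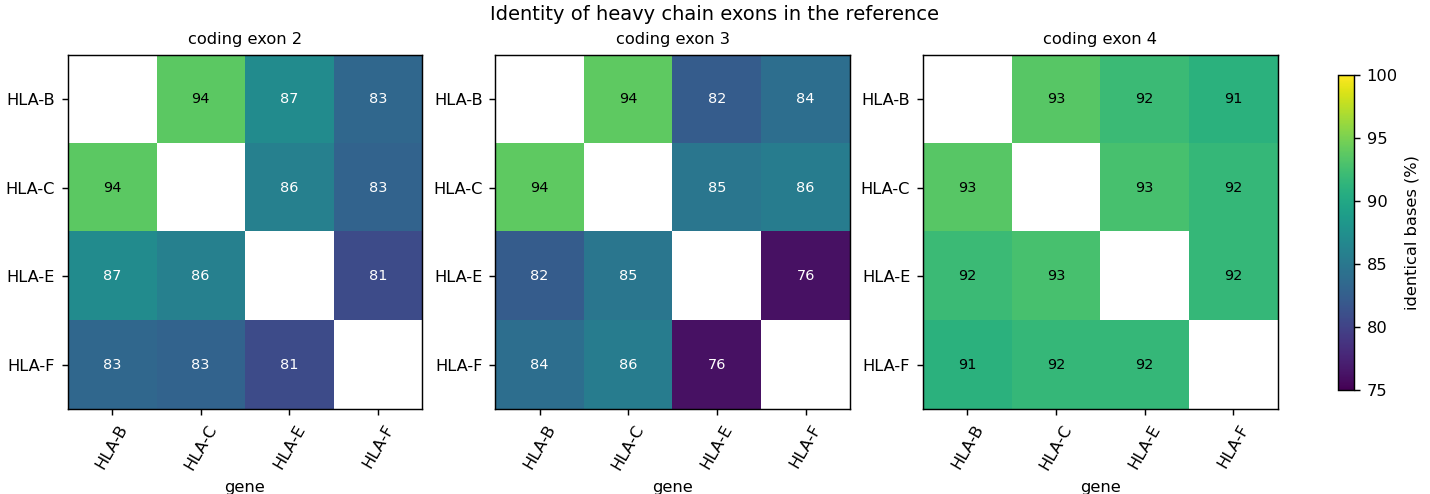
Share of identical bases (%) between pairs of class I heavy chain genes in coding exons 2, 3 and 4 of the reference, with genes on both axes and the percent in each cell. Exon 4 has the narrowest range over the pairs (90.9% to 93.5%), and HLA-E and HLA-F are the least alike pair in exons 2 and 3 (80.7% and 76.1%).

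SIRT1 was measured first, as a check of the labels. Its level was 10.46 and 10.25 FPKM in the Control libraries and 1.80 and 2.05 FPKM in the siSIRT1 libraries, where FPKM counts fragments relative to transcript length and to the total of mapped fragments. The siSIRT1 mean was 18.6% of the Control mean. The cells showed high levels of keratin 8 (KRT8, 2164 to 2745 FPKM), keratin 18, keratin 19 and vimentin, whereas keratin 7 stayed at 2.89 to 4.04 FPKM. In siSIRT1, keratin 18 (0.26 on the log2 scale) and keratin 19 (0.25) rose and vimentin (VIM, -0.53) fell. Keratin 8 (0.25) and keratin 7 (-0.10) did not pass the test. Of 8 immune cell markers, which matter here because leukocytes are rich in MHC class I, 6 were listed, and their summed level was 22.13 and 24.87 FPKM in Control versus 26.13 and 20.88 FPKM in siSIRT1. NKG7 lay at 0 in 3 libraries and at 0.15 FPKM in the other, CD79A at 0 to 0.66, PTPRC at 0.97 to 1.29 and LYZ at 15.3 to 19.5 FPKM. ITGAM was higher in both siSIRT1 libraries (0.12 and 0.15 versus 0.74 and 1.09 FPKM) and CD14 was lower in both (5.11 and 5.49 versus 4.45 and 3.17 FPKM). None of the 3 markers that reached the level for testing passed, and CD3E and MS4A1 were not among the listed genes. The part of these markers in the results was not tested. From steps of 1 read in low values, the depth was estimated at 8710000 to 9170000 reads per library.

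Of the 9 genes, 8 averaged 1 FPKM or more over the 4 libraries and were tested with limma on log2(FPKM + 1), with Benjamini-Hochberg adjustment over 12191 genes and a threshold of 0.05. HLA-B, HLA-F and TAP1 rose in siSIRT1, none fell, and HLA-C, HLA-E, B2M, TAP2 and TAPBP did not pass. Thus 3 of 8 passed (37.5%), and 37.1% of all genes tested passed in either direction, so the share of these genes was that of the background. That background itself rested on the libraries. It fell when either Control library was left out and changed less when either siSIRT1 library was left out. In the rising direction alone the background was 24% (2930 genes), and in the falling direction 13.1% (1591 genes). The split of all calls depended on the scaling and on trend removal. With the values as deposited, 64.8% of the called genes were higher. Under other scalings, or with the GC or length trend removed, the share was 49% to 55.6%. The 8 genes had a median log2 fold change of 0.14, beside 0.07 over all genes. Because the RNA was taken from bulk cells, fewer cells with a transcript and less of it per cell cannot be told apart.

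**Figure D2:**
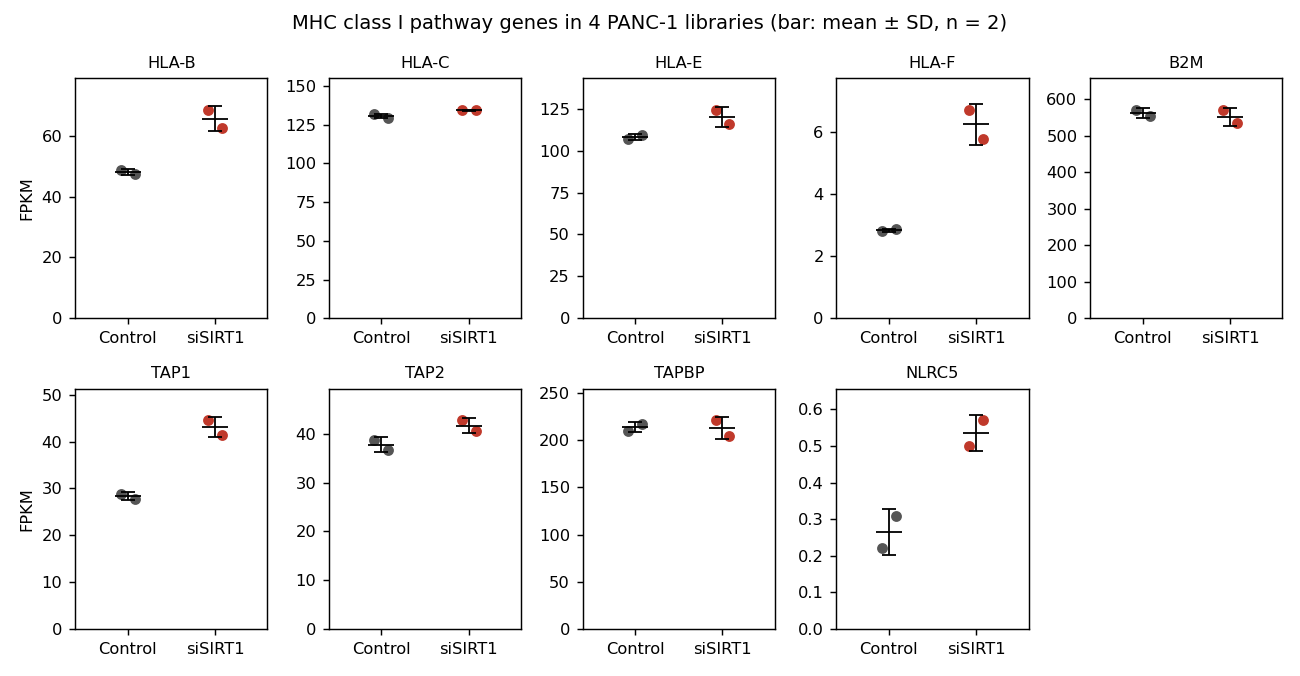
FPKM of the 9 genes in each library, on linear axes that start at 0 (grey points, Control; red points, siSIRT1; horizontal lines and bars, mean ± SD, n = 2). The siSIRT1 points lie well above the Control points for HLA-B, HLA-F and TAP1 and overlap them for B2M and TAPBP.

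Among the heavy chains, HLA-F changed most. HLA-F (gene ID 3134, chr6:29690552-29706305, GRCh37, plus strand) encodes a heavy chain that can reach the cell surface without a bound peptide. Its level was 2.80 and 2.87 FPKM in Control, against 6.71 and 5.76 FPKM in siSIRT1. Both siSIRT1 libraries were above both Control libraries, and the mean was 2.20 times that of Control. The log2 fold change on log2(FPKM + 1), a scale that shrinks the change of a gene at this low level, was 0.91 (SE 0.12, 95% interval 0.64 to 1.19, limma adjusted p = 0.000686). HLA-F ranked 194 of 12191 genes by its fold change. These values rest on few reads, about 35 and 37 in Control and about 82 and 73 in siSIRT1. On the opposite strand, exons of an unnamed gene model cover 24.6% of its canonical transcript. Those of HLA-F-AS1 and of RPL23AP1 each cover 17.4%. Whether the counting used strand is not given in the sources used here.

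HLA-B also rose. HLA-B (gene ID 3106, chr6:31321649-31334844, minus strand) is the most variable of the classical heavy chains. It stood at 48.94 and 47.43 FPKM in Control, against 68.62 and 62.76 FPKM in siSIRT1. The groups did not overlap, and the gap between them was larger than the spread within either. The log2 fold change was 0.44 (SE 0.07, interval 0.29 to 0.59, limma adjusted p = 0.00133), a 1.35-fold higher level on that scale, with about 633 to 870 reads per library. Exons of an unnamed gene model on the opposite strand cover 23.7% of its canonical transcript.

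HLA-C and HLA-E did not pass the test. HLA-C (gene ID 3107, chr6:31236526-31239907, minus strand), a classical heavy chain and a main ligand of killer-cell immunoglobulin-like receptors, had 131.78 and 129.53 FPKM in Control versus 134.73 and 134.24 FPKM in siSIRT1. Its log2 fold change was 0.04 (interval -0.08 to 0.17, limma adjusted p = 0.595), and its sign turned under other scalings. HLA-E (gene ID 3133, chr6:30457286-30461971, plus strand), which presents leader peptides of other class I chains to NKG2A receptors, had 106.79 and 109.46 FPKM in Control versus 124.43 and 115.67 FPKM in siSIRT1. The siSIRT1 values of HLA-E lay above those of Control, with a log2 fold change of 0.15 (interval 0.01 to 0.29, limma adjusted p = 0.0888). Without siSIRT1 replicate 2, HLA-E passed the test, at 0.20 (limma adjusted p = 0.0248). Over the 8 genes tested, 6 were higher in both siSIRT1 libraries than in both Control libraries and 0 were lower, beside 43.8% and 25.2% of all genes.

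Per kilobase, HLA-C and HLA-E were the most abundant of the 4 heavy chains in both groups, followed by HLA-B and, far below, HLA-F. The difference between HLA-C and HLA-E exceeded the spread between libraries in each group, 131 ± 1.59 against 108 ± 1.89 FPKM in Control and 134 ± 0.346 against 120 ± 6.19 FPKM in siSIRT1 (mean ± SD, n = 2). The summed level of the 4 heavy chains was 290.31 and 289.29 FPKM in Control versus 334.49 and 318.43 FPKM in siSIRT1. HLA-B made up 16.9% and 16.4% of this sum in Control versus 20.5% and 19.7% in siSIRT1. HLA-F made up 0.964% and 0.992% in Control versus 2.01% and 1.81% in siSIRT1. In an exact permutation test 2 against 2 libraries can give no two-sided p below 0.333, which is the p of each of these shares and of the sum. The heavy chain sum thus lay higher in both siSIRT1 libraries, with a ratio of means of 1.13, and it covers these 4 genes only.

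**Figure D3:**
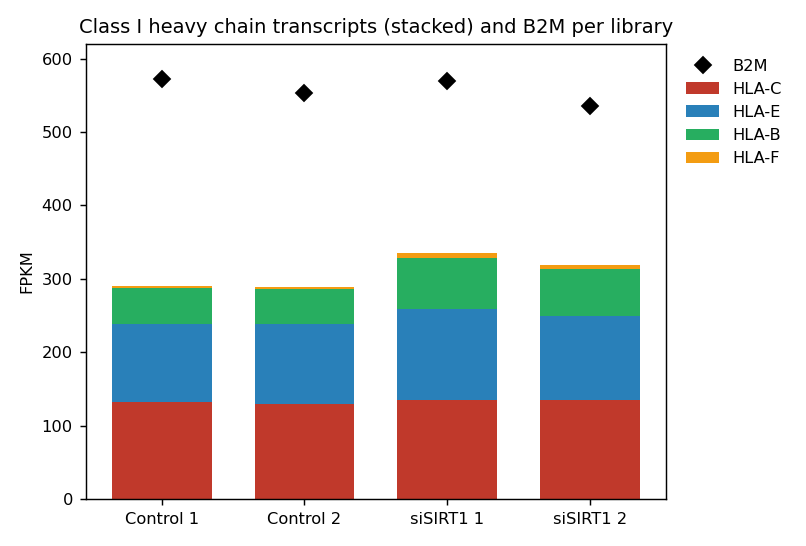
Stacked FPKM of HLA-C, HLA-E, HLA-B and HLA-F in each library, with B2M as a black diamond. The HLA-B and HLA-F segments are larger in both siSIRT1 libraries than in both Control libraries, and B2M lies between 535 and 572 FPKM in all 4, above the stacked sum.

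The light chain gene B2M did not pass the test. B2M (gene ID 567, chr15:45003556-45011049, plus strand) encodes beta-2-microglobulin, without which the heavy chains do not fold or reach the surface. It was the most abundant of the 9 genes, at 571.70 and 553.57 FPKM in Control versus 570.22 and 534.81 FPKM in siSIRT1. The groups overlapped, and the log2 fold change was -0.03 (interval -0.18 to 0.12, limma adjusted p = 0.780). After removal of each library's trend on transcript length, B2M passed the test in the falling direction, at -0.22 (limma adjusted p = 0.0011). The ratio of B2M to the 4 heavy chains was 1.97 and 1.91 in Control versus 1.70 and 1.68 in siSIRT1. The ratio covers these 4 heavy chains only.

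Of the transporter subunits, TAP1 passed the test and TAP2 did not. TAP1 (gene ID 6890, chr6:32812986-32821593, minus strand), which forms one side of the peptide transporter, had 28.89 and 27.73 FPKM in Control versus 44.51 and 41.50 FPKM in siSIRT1. Both siSIRT1 libraries were above both Control libraries by more than the spread within the groups. TAP1 rose by a log2 fold change of 0.59 (SE 0.07, interval 0.43 to 0.74, limma adjusted p = 0.000374). It ranked 736 of 12191 genes, with about 662 to 1010 reads per library. The opposite-strand transcript PSMB8-AS1 covers 21.5% of its canonical transcript.

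TAP2 (gene ID 6891, chr6:32789610-32806516, minus strand), the partner subunit, had 38.82 and 36.76 FPKM in Control versus 42.74 and 40.52 FPKM in siSIRT1. The siSIRT1 values lay just above those of Control, and the log2 fold change of 0.14 did not pass (interval -0.02 to 0.29, limma adjusted p = 0.143). The ratio of TAP1 to TAP2 was 0.744 and 0.754 in Control versus 1.04 and 1.02 in siSIRT1. Per kilobase, TAP1 lay below TAP2 in both Control libraries and just above it in both siSIRT1 libraries, with an exact permutation p of 0.333, the smallest this design allows. Exons of an unnamed gene model on the same strand, which is not in the tables, cover 35.9% of the canonical TAP2 transcript.

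TAPBP (gene ID 6892, chr6:33267471-33282061, minus strand) encodes tapasin, which bridges the transporter and the heavy chain. It had 210.13 and 217.39 FPKM in Control versus 220.90 and 204.27 FPKM in siSIRT1. The groups overlapped, and the log2 fold change was -0.01 (interval -0.15 to 0.13, limma adjusted p = 0.927). An unnamed opposite-strand model covers 40.5% of the canonical TAPBP transcript. TAPBP stood 7.27 and 7.84 times above TAP1 in Control and 4.96 and 4.92 times above it in siSIRT1.

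NLRC5 (gene ID 84166, chr16:57023397-57117443, plus strand), the transactivator of class I genes, was the least abundant of the 9. Its level was 0.22 and 0.31 FPKM in Control versus 0.50 and 0.57 FPKM in siSIRT1, or about 13 and 19 reads and about 29 and 35 reads. Both siSIRT1 libraries were above both Control libraries. NLRC5 stayed below the mean of 1 FPKM required for the test. In a fit without this requirement its log2 fold change was 0.28 (interval 0.10 to 0.46), with a limma adjusted p of 0.0526, just above the threshold. The log2(FPKM + 1) scale shrinks a change at so low a level, and the siSIRT1 mean was 2.02 times that of Control.

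**Figure D4:**
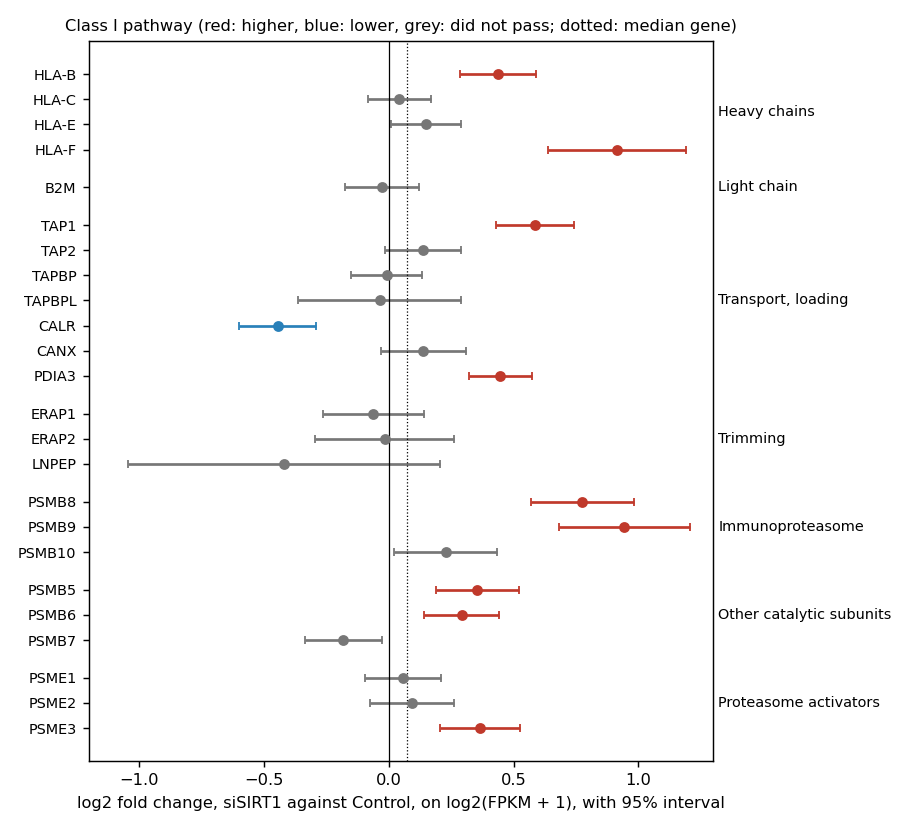
Log2 fold change on log2(FPKM + 1), siSIRT1 against Control, with 95% intervals for the tested genes of class I assembly, peptide loading, trimming and proteolysis (red, higher; blue, lower; grey, did not pass; dotted line, median of all genes at 0.07). Members of one functional group lie on both sides of the line, such as PDIA3 (0.45) and CALR (-0.45).

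Other genes of peptide loading moved in both directions. Of 8 loading chaperones and trimming peptidases, 1 rose, 1 fell and 6 did not pass (25% passed, beside 37.1% of all genes). PDIA3, which encodes ERp57, the oxidoreductase bound to tapasin, rose from 213.83 and 214.52 FPKM to 290.98 and 293.91 FPKM (log2 fold change 0.45, limma adjusted p = 0.000507). CALR, which encodes calreticulin, the lectin chaperone of the same complex, fell from 673.98 and 676.03 FPKM to 517.54 and 474.22 FPKM (-0.45, limma adjusted p = 0.00136). The aminopeptidases ERAP1 and ERAP2, which trim peptides in the endoplasmic reticulum, had log2 fold changes of -0.06 and -0.02 and did not pass.

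Upstream of TAP1, subunits of the immunoproteasome rose. These are interferon-inducible catalytic subunits that replace the constitutive ones and favor peptides suited to class I. PSMB9 had 6.65 and 7.71 FPKM in Control versus 16.07 and 13.43 FPKM in siSIRT1 (log2 fold change 0.94, limma adjusted p = 0.000454). PSMB8 had 10.30 and 11.38 FPKM in Control versus 20.17 and 18.37 FPKM in siSIRT1 (0.78, limma adjusted p = 0.000366). Both are neighbors of TAP1 in the class II region of chromosome 6, and the start sites of TAP1 and PSMB9, which run in opposite directions, lie 488 bases apart. PSMB10, the remaining inducible subunit, on chromosome 16, did not pass (0.23, limma adjusted p = 0.0793).

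Of the 6 genes of the immunoproteasome and the proteasome activators, 3 rose, 0 fell and 3 did not pass. This is 50% passed, beside 37.1% of all genes. The third to rise was PSME3 (0.37), which encodes a nuclear proteasome activator, while PSME1 and PSME2 did not pass. Of the 3 constitutive catalytic subunits, PSMB5 (0.36) and PSMB6 (0.29) rose and PSMB7 did not pass (66.7% passed). The ratio of PSMB8 to PSMB5, the subunit it replaces, was 0.201 and 0.227 in Control versus 0.290 and 0.301 in siSIRT1. The ratio of PSMB9 to PSMB6 was 0.0633 and 0.0760 in Control versus 0.121 and 0.112 in siSIRT1. Constitutive subunits thus stayed in excess per kilobase in all 4 libraries. Of 6 cytosolic peptidases, BLMH rose (0.66), NRDC (-0.29) and NPEPPS (-0.24) fell, and 3 did not pass (50% passed).

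Factors known to act on class I promoters were examined next, where 14.3% of each of 2 lists passed beside 37.1% of all genes. Of 7 tested genes of the RFX, CREB/ATF and NF-Y complex that works with NLRC5, only RFXANK rose, from 29.89 and 26.82 FPKM to 42.94 and 33.94 FPKM (log2 fold change 0.42, limma adjusted p = 0.0162), and 0 fell. Of 7 tested genes of interferon-gamma and NF-kappaB input, 0 rose and 1 fell. This was IFNGR2, a subunit of the interferon-gamma receptor, from 57.76 and 55.90 FPKM to 40.57 and 43.76 FPKM (-0.42, limma adjusted p = 0.00147). IRF1 (-0.11) and RELA (0.04), named here after their values were seen, did not pass.

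Heavy chains are also removed from the surface or from the endoplasmic reticulum. Of 8 genes of heavy chain turnover, 4 rose, 1 fell and 3 did not pass (62.5% passed, beside 37.1% of all genes). Those with the largest changes were MARCHF9 (0.53), a membrane ubiquitin ligase, TMEM129 (-0.42), a ligase of the endoplasmic reticulum, HM13 (0.37), the signal peptide peptidase that also releases the leader peptides bound by HLA-E, and UBE2J2 (0.36), a ubiquitin-conjugating enzyme. Over the 7 lists that cover loading, proteolysis, promoter factors, inputs and turnover, 45 genes were tested, of which 12 rose, 5 fell and 28 did not pass (37.8% passed, background 37.1%). Their median log2 fold change was 0.06.

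The position of the genes was also examined, since 7 of the 9 lie on the short arm of chromosome 6. In the stretch of 3.59 Mb from HLA-F to TAPBP, 95 genes were tested, of which 17 rose, 21 fell and 57 did not pass. This is 40% passed, beside 37.1% of all genes (24% rose and 13.1% fell). The median log2 fold change there was 0.02, beside 0.07 over all genes.

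Interferon-type motifs in the promoters of these genes were then listed, because NLRC5-bound and interferon-driven elements are known to lie just before their start sites. RefSeq promoters (GRCh38.p14) were matched for 7 of the 9 genes, HLA-E and NLRC5 having no entry. In the 250 bases before the start, on both strands, GAANNGAAA, or GAAA followed after any 2 bases by GAAA, which are 2 spacings of the core of interferon-stimulated response elements, occurred in 7 of 7, against 9.08% of 35116 promoters. The choice of these spacings was made with the promoters in view. A gene was counted if any of its promoters held the motif, whereas the shares of all promoters count single promoters. The GAAA pair alone occurred in 5 of 7 (3.02% of all promoters), and CCAATCAG, a form of the NF-Y box, in HLA-B, HLA-C, HLA-F and B2M (3.81% of all). The match is shown in capitals for each gene in 30 bases of coding-strand sequence. The stretches lie at chr6:31357315-31357344 (minus) for HLA-B, chr6:31272224-31272253 (minus) for HLA-C, chr6:29723268-29723297 (plus) for HLA-F, chr15:44711363-44711392 (plus) for B2M, chr6:32853819-32853848 (minus) for TAP1, chr6:32838778-32838807 (minus) for TAP2 and chr6:33314079-33314108 (minus) for TAPBP.
HLA-B: ctcccctgagTTTCACTTCttctcccaact
HLA-C: ctcccctgagTTTCACTTCtcccaacctgc
HLA-F: ctccccagagTTTCTCTTTCtctcccaacc
B2M: gagactctaaGAAAAGGAAActgaaaacgg
TAP1: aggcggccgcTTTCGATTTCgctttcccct
TAP2: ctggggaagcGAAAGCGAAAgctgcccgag
TAPBP: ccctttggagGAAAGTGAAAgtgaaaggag

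In HLA-B and HLA-C, of which the first rose and the second did not pass, the stretch before the start held the same letters at the match, 155 to 147 and 151 to 143 bases before the start. All 7 promoters matched under spacings that were chosen with them in view. A match therefore cannot separate the genes that rose (HLA-B, HLA-F, TAP1) from those that did not pass (HLA-C, B2M, TAP2, TAPBP). Whether the motifs bear on the changes was not tested. A match describes letters only and shows no binding.

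The pattern of the summed heavy chains over the 4 libraries was most like that of SLC26A11, SAMD4B, TUT1, ILF2 and TMEM258, by the distance between centred log2(FPKM + 1) profiles (0.0119 to 0.0163). SLC26A11, a sulfate transporter gene, had 10.21 and 10.17 FPKM in Control versus 12.04 and 11.32 FPKM in siSIRT1. The likeness rests on 4 libraries in 2 groups and is given as a description.

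**Figure D5:**
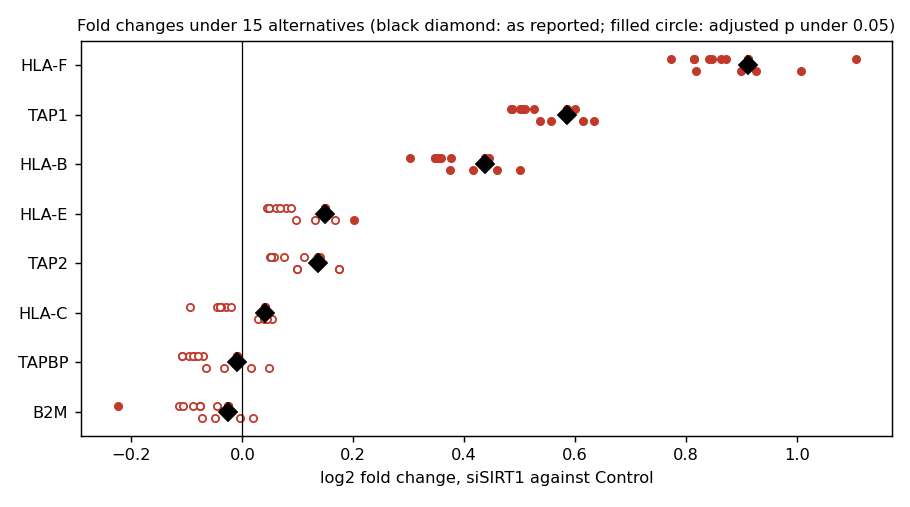
Log2 fold change of the 8 tested genes as reported (black diamonds) and under 15 alternatives, of which 11 change the processing (upper circles) and 4 leave out 1 library (lower circles); filled circles have an adjusted p under 0.05. HLA-F, TAP1 and HLA-B stay above 0 and filled throughout, and HLA-C, TAPBP and B2M lie on both sides of 0, with B2M filled once at -0.22.

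Across 11 alternatives in processing, HLA-F ranged from 0.77 to 1.11, TAP1 from 0.49 to 0.60 and HLA-B from 0.30 to 0.45 on the log2 scale, and each passed the test in 11 of 11. They also passed in each of the 4 fits that left out 1 library.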

How the data were processed

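The authors deposited FPKM per gene for each of 4 libraries, 2 Control and 2 siSIRT1, rounded to 2 decimals. The submitters' processing notes list Bowtie2, HISAT, RSEM and ChIPseeker without their roles; the build, read length and use of strand are not given in the sources used here. FPKM depend on each library's total, so abundant changed genes shift all others. Genes averaging 1 FPKM or more were tested on log2(FPKM + 1) with limma 3.58.1 (R 4.3.3; lmFit, eBayes with trend, two-sided, Benjamini-Hochberg, threshold 0.05). Ratios were compared by exact permutation. The test was checked on simulated data. The simulated libraries had no scaling difference and no GC or length trend, so the check cannot show how the test performs on these libraries. Coordinates, exons and transcripts come from GENCODE 44 on GRCh37. Of 16878 identifiers, 16846 matched RefSeq names. Reads behind a value were derived from the estimated depth (9010000 and 9170000 in Control, 8710000 and 9090000 in siSIRT1) and the length of the canonical transcript, so they are approximate.

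The genes and lists were chosen with earlier results of these data known. Named were SIRT1, the 9 genes, at most 4 genes per list past the threshold with the largest changes, and the 5 nearest profiles. PSMB7, PSMB10, PSME1, PSME2, ERAP1, ERAP2, IRF1 and RELA were named after their values were seen. 2 genes of the lists are not reported here and were left out of the list counts. Alternatives changed the pseudocount, filter, scaling, GC and length trends, variance trend, replicate block and libraries used.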

Additional observations from a re-analysis of the deposited data

How the results depend on the processing

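HLA-B, HLA-F and TAP1 kept their direction under all alternatives run and passed under all 11 that changed the processing. HLA-C turned negative with quantile normalization (-0.029), median-of-ratios (-0.046) and upper-quartile scaling (-0.039), equal FPKM sums (-0.020), the GC trend removed (-0.040) and the length trend removed (-0.095), and with the replicate block plus the GC correction (-0.040), and it never passed. B2M passed only with the length trend removed (-0.22). Leaving out 1 library gave -0.073 to 0.019 for B2M, -0.065 to 0.047 for TAPBP and 0.10 to 0.20 for HLA-E, which passed only without siSIRT1 replicate 2 and with the replicate block (0.15, limma adjusted p = 0.0368). The number of genes changed was 4521, and 2691 to 4608 without 1 library, lowest without Control replicate 2 (2691) and Control replicate 1 (2744). For other alternatives it ran from 3531 to 5393, the last with the replicate block. The replicate numbers are shared only as labels, the deviations of same-numbered libraries correlated at 0.123 across genes, and the block changed no other call among the 8 genes. The cause of these shifts was not tested. Of the 9 genes, depth limits HLA-F and NLRC5, with fewer than 100 reads in each library. Other named genes with few reads include CD74 (about 8 to 24), RAET1G (10 to 21) and USP18 (19 to 56). PSMB9 had about 56 and 66 reads in the Control libraries.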

Other observations

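Class I-like ligands of natural killer receptors moved in both directions. Of 11 tested genes of HLA-G and class I-like chains and ligands, 2 rose, 3 fell and 6 did not pass (median log2 fold change -0.06), which is 45.5% passed beside 37.1% of all genes. MICB, a stress-induced ligand of NKG2D, rose from 34.77 and 34.90 FPKM in Control to 49.70 and 54.60 FPKM in siSIRT1 (log2 fold change 0.57, limma adjusted p = 0.000439), whereas ULBP1, another NKG2D ligand, fell from 10.44 and 11.70 FPKM to 5.87 and 5.48 FPKM (-0.85, limma adjusted p = 0.000453). RAET1G, of the same ligand family, fell (-0.56). MR1, which presents vitamin B metabolites to mucosal-associated T cells, rose (0.58).

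Of 14 tested interferon response genes, 5 rose, 3 fell and 6 did not pass (median 0.18), which is 57.1% passed beside 37.1% of all genes. IFI6 rose from 23.01 and 23.49 FPKM to 61.17 and 53.48 FPKM (1.26), and OAS3 (1.04) and USP18 (0.80) also rose. IFIT2, which belongs to the same response, fell from 5.32 and 6.22 FPKM to 2.41 and 2.41 FPKM (-0.99). Of the MHC class II pathway, 2 genes could be tested. CD74, the invariant chain, rose from 0.79 and 0.55 FPKM to 1.57 and 1.66 FPKM (0.65, limma adjusted p = 0.00848), and HLA-DMA did not pass. CD74 lay below 1 FPKM in both Control libraries and reached the level for testing only through its siSIRT1 values. Its values rest on about 11 and 8 reads in Control and about 22 and 24 reads in siSIRT1.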
